A study of Homo sapiens with 15 samples.

Results

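The genes described here were highly expressed in the ovarian cancer cell line A2780, were low in its cisplatin-resistant derivative CP70, and stayed low in CP70 after every drug treatment of the study. They were chosen from the group means of a log2 expression table: a gene had to average at least 8 log2 in A2780 and under 5.5 log2 in untreated CP70, in CP70 given decitabine, in CP70 given PXD101 and in CP70 given both drugs. DLX, FABP, HOX, PCDH, COL and KRT genes were left out by symbol, as were PMP2, LIN28A and MEST. The rule took 40 of 19775 genes, after 5 genes that passed the levels had been left out by symbol. The levels of these genes in A2780 and CP70 are therefore a description of how they were picked, and no test is given for them.

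RNA was measured on Affymetrix expression arrays, where each gene is read by sets of short probes, in 15 arrays from 5 groups of 3 biological replicates. Cells given decitabine received 0.1 µM for 48 h, and cells given PXD101 received 0.1 µM for 48 h. Cells given both drugs received decitabine for 48 h at 0.1 µM, with PXD101 present at 0.1 µM for 24 h of that schedule. For this arm the treatment protocol writes a different name for the resistant cells, while the sample titles say CP70, and the titles were followed. Treated cells were collected 96 h after the drugs were taken away. The remaining groups were untreated CP70 and untreated A2780, the cisplatin-sensitive parent line. The length of PXD101 exposure differed between the arms, and all resistant cells came from a single resistant line, so resistance and the history of that line cannot be told apart. Each array pools many cells, so that fewer cells expressing a gene and less RNA per cell cannot be told apart.

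Decitabine is a nucleoside analog that is built into DNA and traps DNA methyltransferases, so that methylation is lost as cells divide. Methylation of CpG dinucleotides around a start site is a well-known way in which cancer cells keep a gene off. PXD101, also called belinostat, inhibits the histone deacetylases that remove acetyl groups from histones. These arrays measured RNA alone, and neither DNA methylation nor histone acetylation was measured here.

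The promoter sequences below come from RefSeq (GRCh38.p14) and span 250 bases before to 50 bases after the annotated start, read 5′ to 3′ on the strand of the gene, with each CpG dinucleotide in capitals. GPR158 at chr10:25174751-25175050 on the + strand and ZNF532 at chr18:58862674-58862973 on the + strand are shown because both genes rose with decitabine while staying under the limit. KCNMA1 at chr10:77637759-77638058 on the - strand and MMRN1 at chr4:89879261-89879560 on the + strand are shown because they had the most and the fewest CpG dinucleotides among the genes with a sequence.
GPR158: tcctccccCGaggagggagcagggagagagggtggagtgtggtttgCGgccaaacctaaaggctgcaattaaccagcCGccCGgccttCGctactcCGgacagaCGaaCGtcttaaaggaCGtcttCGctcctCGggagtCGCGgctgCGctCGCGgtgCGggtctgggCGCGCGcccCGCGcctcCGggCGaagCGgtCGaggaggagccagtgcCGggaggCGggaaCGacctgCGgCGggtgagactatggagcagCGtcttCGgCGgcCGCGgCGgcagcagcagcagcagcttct
ZNF532: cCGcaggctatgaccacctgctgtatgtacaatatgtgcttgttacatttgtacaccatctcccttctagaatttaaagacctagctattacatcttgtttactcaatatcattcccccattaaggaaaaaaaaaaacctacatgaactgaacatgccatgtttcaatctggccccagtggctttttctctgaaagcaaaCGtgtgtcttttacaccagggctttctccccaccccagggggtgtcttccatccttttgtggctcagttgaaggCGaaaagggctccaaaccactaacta
KCNMA1: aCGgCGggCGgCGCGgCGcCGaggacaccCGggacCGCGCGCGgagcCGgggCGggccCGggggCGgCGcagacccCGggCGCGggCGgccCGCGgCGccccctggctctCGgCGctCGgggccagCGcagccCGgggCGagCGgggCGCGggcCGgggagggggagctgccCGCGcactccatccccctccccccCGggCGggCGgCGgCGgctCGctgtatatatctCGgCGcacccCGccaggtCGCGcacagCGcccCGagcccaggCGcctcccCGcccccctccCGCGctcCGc
MMRN1: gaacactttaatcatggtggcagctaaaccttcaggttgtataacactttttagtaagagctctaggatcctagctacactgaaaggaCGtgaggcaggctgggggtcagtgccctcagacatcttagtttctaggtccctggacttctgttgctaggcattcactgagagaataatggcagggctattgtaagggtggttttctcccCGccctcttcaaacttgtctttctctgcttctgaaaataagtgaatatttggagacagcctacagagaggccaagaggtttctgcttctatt
GPR158 held 37 CpG dinucleotides in its 300 bases, against 3 in ZNF532. KCNMA1 held 54, and MMRN1 held 2.

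Replicate arrays correlated at 0.993 or more within every group apart from untreated CP70. Its replicate 2 stood apart: against the PXD101 arrays its correlations were 0.995 to 0.997, and against the other untreated CP70 arrays 0.983 to 0.986. The difference between the 3′ and 5′ actin probe sets, a sign of RNA quality, was 0.42 to 0.49 log2 with both drugs, 0.34 to 0.79 log2 with decitabine and 0.38 to 0.51 log2 with PXD101, against 0.63 to 0.86 log2 in untreated CP70. In A2780 it was 0.34 to 0.38 log2, and its part in the results was not tested. Of 11 markers of epithelium and ovarian carcinoma, 6 averaged under 5.5 log2 in both untreated lines, among them CDH1 at 3.71 log2 in untreated CP70 and 3.56 log2 in A2780. Their summed level was 62.0 to 63.4 log2 in untreated CP70, against 58.5 to 60.5 log2 in A2780. By limma 2 of them were higher in untreated CP70 and 0 lower, and their part in the results was not tested. Of 5 mesenchymal markers, VIM averaged 14.29 log2 in untreated CP70 and 14.21 log2 in A2780, 2 were higher in untreated CP70 by limma (FN1, at 7.51 log2 against 4.95 log2 in A2780, and SNAI2) and CDH2 was lower, at 10.02 log2 against 11.74 log2 in A2780. The summed level of 11 fibroblast and endothelial markers was 63.4 to 63.9 log2 in untreated CP70, against 57.9 to 59.5 log2 in A2780. Of these 11, 2 were higher and 2 lower by limma, with a median difference of 0.07 log2, and 6 averaged under 5.5 log2 in both lines. Their part in the results was not tested. Of 10 leukocyte markers, 9 averaged under 5.5 log2 in every group.

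In untreated CP70 the 40 genes lay between -8.33 and -3.42 log2 of their A2780 level, with a median difference of -5.0 log2, beside 0.01 log2 over all genes. For each of the 40 genes, the lowest A2780 array lay above the highest of the 12 CP70 arrays, by 2.54 to 7.62 log2. By limma at an adjusted p under 0.05, 15.2% of all genes were lower in untreated CP70. The rule asked for this difference, so nothing is read from it for the 40 genes. In 15 of the 40 genes all 4 CP70 means lay under 4.34 log2, the lower quartile of all gene values. Probe sets differ in how strongly they respond, so levels are compared within a gene and not between genes, and a value near the bottom of the scale does not tell a low level from no expression.

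**Figure D1:**
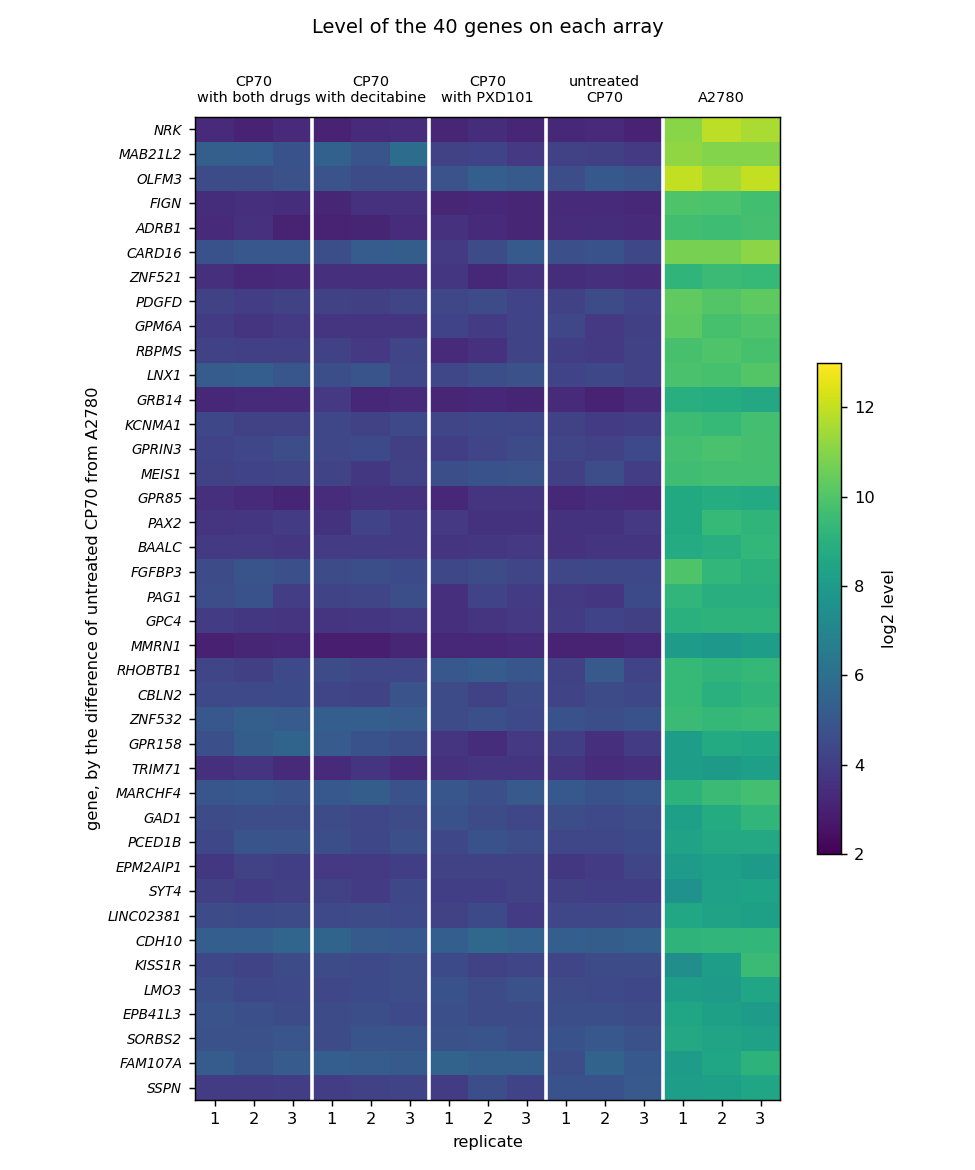
Heat map of the log2 level of the 40 genes (rows, by the difference of untreated CP70 from A2780) on the 15 arrays (columns, by group and replicate). Read along each row, the 3 A2780 arrays stand above all 12 CP70 arrays, and the few lighter cells in CP70 belong to genes such as MAB21L2, LNX1 and CDH10.

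Among transcription factors and developmental regulators, MAB21L2, a nuclear protein needed for eye development, had 4.11, 4.10 and 3.87 log2 in untreated CP70, against 11.18, 10.97 and 10.96 log2 in A2780. That was a difference of -7.01 log2. ZNF521, a zinc finger regulator of progenitor cells, had 3.43, 3.47 and 3.38 log2 in untreated CP70, against 9.21, 9.51 and 9.39 log2 in A2780. MEIS1, a homeodomain partner of HOX proteins, had 4.07, 4.59 and 4.0 log2 in untreated CP70, against 9.61, 9.72 and 9.72 log2 in A2780. PAX2, a paired-box regulator of kidney and reproductive tract development, had 3.63, 3.59 and 3.82 log2 in untreated CP70, against 8.69, 9.36 and 9.20 log2 in A2780. In all of these genes the spread within a line was small beside the distance between the lines, which the rule asked for. The zinc finger gene ZNF532 differed by -4.67 log2 and LMO3, a LIM-only cofactor, by -3.79 log2.

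Signalling genes, by roles assigned by hand, numbered 12. NRK, a kinase related to the STE20 family, had 3.22, 3.30 and 3.05 log2 in untreated CP70, against 11.06, 11.90 and 11.61 log2 in A2780. The means differed by -8.33 log2, with the CP70 arrays near the bottom of the scale, and a second NRK probe set differed by -5.51 log2. ADRB1, the beta-1 adrenergic receptor, had 3.38, 3.44 and 3.34 log2 in untreated CP70, against 9.65, 9.59 and 9.75 log2 in A2780. PDGFD, a secreted ligand of the platelet-derived growth factor receptor beta, had 4.15, 4.52 and 4.22 log2 in untreated CP70, against 10.33, 10.07 and 10.27 log2 in A2780. GRB14, an adaptor that inhibits the insulin receptor, averaged 3.25 ± 0.17 log2 in untreated CP70 and 8.77 ± 0.13 log2 in A2780 (SD, n = 3 each).

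Other receptors in the group were GPR85 and GPR158, classed as orphan receptors when they were named, and KISS1R, the kisspeptin receptor. GPR85 differed by -5.41 log2 and GPR158 by -4.64 log2. KISS1R had 4.29, 4.52 and 4.50 log2 in untreated CP70, against 7.42, 8.18 and 9.49 log2 in A2780. Its A2780 arrays were the most scattered of the 40 genes (SD 1.05 log2), and the lowest of them lay above every CP70 array. GPRIN3, a G-protein-binding protein of neurites, differed by -5.49 log2, and FGFBP3, which binds fibroblast growth factors, by -5.07 log2. PAG1, a membrane adaptor that recruits the kinase CSK, differed by -5.01 log2, and GPC4, a cell-surface heparan sulphate proteoglycan, by -5.0 log2. RHOBTB1, an atypical GTPase, had 4.17, 5.05 and 4.23 log2 in untreated CP70, against 9.37, 9.19 and 9.33 log2 in A2780. Replicate 2 was the high array of RHOBTB1 in untreated CP70, close to 4.98, 5.19 and 4.96 log2 in CP70 with PXD101.

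Of 5 adhesion and matrix genes, OLFM3, which encodes a secreted olfactomedin protein, averaged 4.82 ± 0.22 log2 in untreated CP70 and 11.83 ± 0.29 log2 in A2780 (SD, n = 3 each). It differed by -7.01 log2, and the other 4 genes by -4.89 to -3.42 log2. These were MMRN1, a multimerin of platelets and endothelium, at -4.89 log2, CBLN2, a synapse organiser, at -4.77 log2, CDH10, a type II cadherin, at -3.94 log2, and SSPN, or sarcospan, of the dystrophin complex, at -3.42 log2. CDH10 was the member closest to the upper limit, and averaged 5.29 ± 0.06 log2 in untreated CP70 and 9.24 ± 0.06 log2 in A2780 (SD, n = 3 each).

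The enzymes included 3 ubiquitin ligases. LNX1, which targets the cell fate protein NUMB, had 4.20, 4.38 and 4.18 log2 in untreated CP70, against 9.86, 9.79 and 10.04 log2 in A2780. TRIM71, an RNA-binding ligase of early embryos, differed by -4.61 log2, and MARCHF4, a ligase of membrane proteins, by -4.53 log2. GAD1, which makes the transmitter GABA from glutamate, differed by -4.17 log2, with 8.22, 8.75 and 9.23 log2 on the A2780 arrays. KCNMA1, the pore subunit of a calcium-activated potassium channel and the only channel among the 40 genes, had 4.14, 3.96 and 4.05 log2 in untreated CP70, against 9.55, 9.37 and 9.72 log2 in A2780. The lines did not overlap in any of these genes, a separation that the rule asked for in the group means.

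Genes of the cytoskeleton and of vesicles numbered 6. FIGN, a microtubule-severing enzyme, had 3.34, 3.36 and 3.26 log2 in untreated CP70, against 9.97, 9.88 and 9.65 log2 in A2780. GPM6A, a membrane glycoprotein of neurons, had 4.36, 3.83 and 4.07 log2 in untreated CP70, against 10.24, 9.80 and 9.96 log2 in A2780. SYT4, a synaptotagmin of secretory vesicles, differed by -4.06 log2, EPB41L3, a band 4.1 protein, by -3.65 log2, SORBS2, an actin-binding adaptor, by -3.63 log2, and FAM107A, an actin-associated protein, by -3.51 log2. FAM107A varied most among these in untreated CP70, at 4.61, 5.52 and 5.01 log2.

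CARD16, a caspase recruitment domain protein that binds caspase-1, had 4.71, 4.78 and 4.40 log2 in untreated CP70, against 10.75, 10.74 and 11.10 log2 in A2780. The other CARD16 probe set averaged 3.11 log2 in untreated CP70 and 3.13 log2 in A2780, so the difference rests on a single probe set. CARD16 closely resembles part of CASP1, so probes could read both. CASP1 itself, named here after its values were seen, had 5.56, 5.63 and 5.66 log2 in untreated CP70, against 5.83, 6.91 and 7.87 log2 in A2780. The CARD16 values varied less over the A2780 arrays than those of CASP1, but on different probe sets. Whether the CARD16 probes also read CASP1 was not tested. RBPMS, an RNA-binding splicing regulator, differed by -5.83 log2, and BAALC, known from leukaemia, by -5.37 log2. PCED1B differed by -4.15 log2, EPM2AIP1, which binds the glycogen phosphatase laforin, by -4.09 log2, and the long non-coding RNA LINC02381 by -4.02 log2. A further EPM2AIP1 probe set averaged 3.39 log2 in untreated CP70 and 9.59 log2 in A2780. It averaged 3.96 log2 with decitabine, 2.97 log2 with PXD101 and 3.76 log2 with both drugs, and no test of these changes is given here.

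For 27 of the 40 genes the array carried 56 further probe sets, of which 15 passed the level limits themselves. Of the 56, 36 were lower in untreated CP70 by at least 1 log2, and 24 were under 5.5 log2 in all groups, as in KCNMA1, where a further probe set had 3.43 log2 in untreated CP70 and 3.59 log2 in A2780. Just inside the A2780 limit lay MMRN1 at 8.02 log2, EPM2AIP1 at 8.09 log2 and SYT4 at 8.12 log2. Just outside it lay SYT1 and PPP2R2B, both at 7.98 log2, and CP at 7.85 log2. The highest CP70 group mean was 5.47 log2 for CDH10, 5.40 log2 for FAM107A and 5.39 log2 for MAB21L2, just inside the upper limit. FEZ1 at 5.57 log2, CBR3 at 5.58 log2 and USP51 at 5.58 log2 lay just outside it.

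The next comparison asked whether the drugs moved the 40 genes at all within the range the rule left them. Of the 40 genes, 36 changed by at most 0.5 log2 with decitabine, 37 with PXD101 and 36 with both drugs. So did 90.3%, 87.6% and 89.1% of all genes in these arms, and 94.8%, 97.6% and 94.3% of the 8209 genes that averaged under 5.5 log2 in untreated CP70. Median changes were 0.06 log2 with decitabine, 0.02 log2 with PXD101 and 0.04 log2 with both drugs, beside 0.02, 0.01 and -0.00 log2 over all genes. The rule capped every CP70 mean at 5.5 log2 and so limited rises, but it did not ask for an absence of change. All of these comparisons share the 3 untreated CP70 arrays. By limma with Benjamini-Hochberg adjustment over all genes, 3 of the 40 genes rose with decitabine (7.5%, against 4.87% of all genes) and 1 fell (2.5%, against 3.14%). With both drugs, 4 rose (10.0%, against 6.17%) and 1 fell (2.5%, against 4.22%). With PXD101, 1 rose (2.5%, against 5.57%) and 2 fell (5.0%, against 5.15%). These shares were near those of all genes, at counts of a few genes each.

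**Figure D2:**
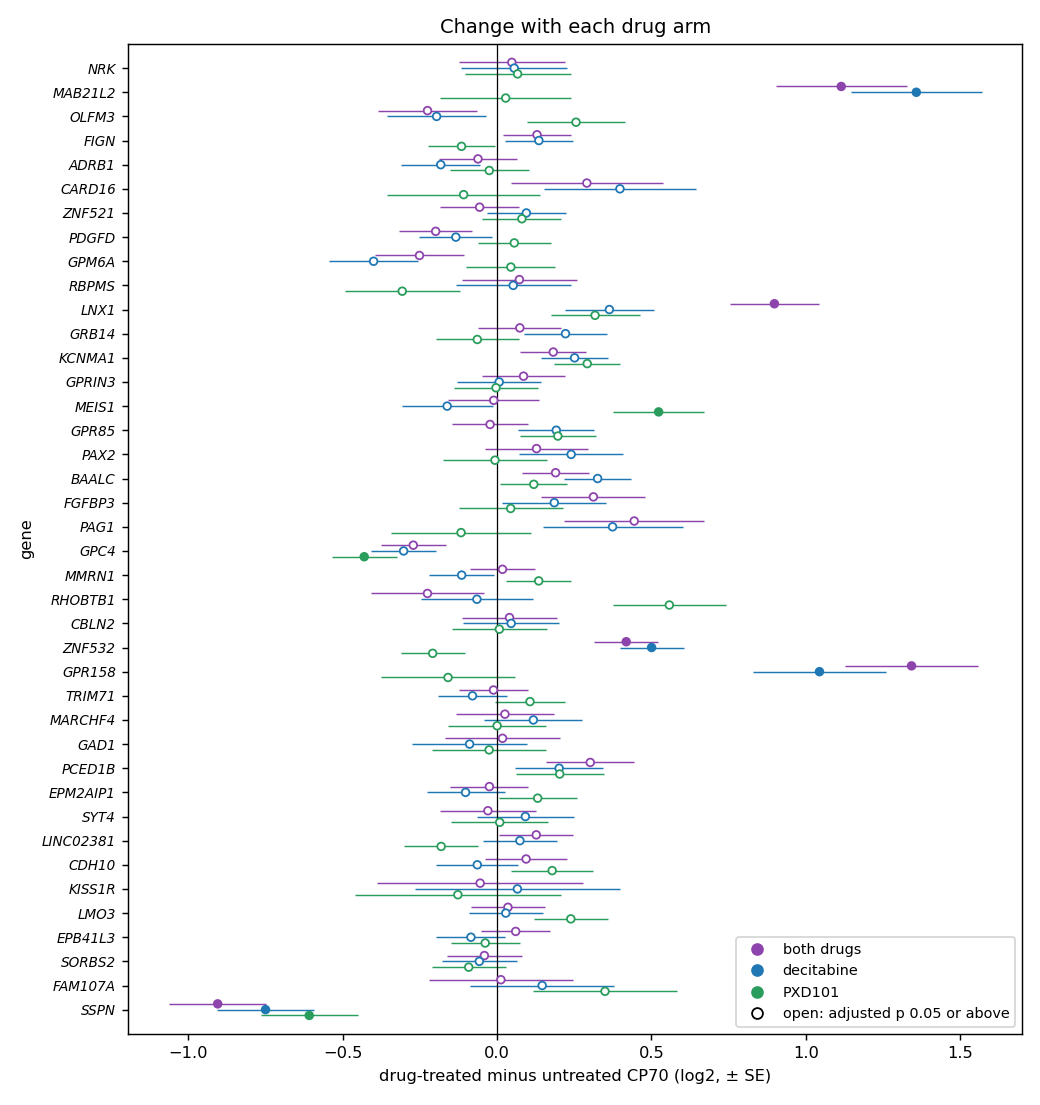
Change of each of the 40 genes in CP70 with both drugs, decitabine or PXD101 against untreated CP70 (log2, points ± SE of the limma fit, 3 arrays a group). Filled points passed an adjusted p of 0.05: MAB21L2, GPR158 and ZNF532 to the right with decitabine and with both drugs, LNX1 to the right with both drugs, MEIS1 to the right with PXD101, SSPN to the left with every arm and GPC4 to the left with PXD101.

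GPR158 had 4.71, 5.24 and 5.53 log2 with both drugs and 5.15, 4.79 and 4.65 log2 with decitabine, against 4.05, 3.48 and 3.91 log2 in untreated CP70. No treated array of these arms overlapped the untreated ones. GPR158 rose by 1.34 ± 0.22 log2 with both drugs (SE, n = 3 each, limma adjusted p = 0.000987) and by 1.04 ± 0.22 log2 with decitabine (SE, limma adjusted p = 0.00763). With PXD101 it had 3.71, 3.46 and 3.81 log2, inside the untreated range apart from 1 array. Even with both drugs its mean stayed 3.30 log2 below A2780 (drug minus A2780, -3.30 log2), so that 28.9% of the log2 distance between the lines was covered. GPR158 has a single probe set on the array.

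MAB21L2 had 5.34, 5.31 and 4.78 log2 with both drugs and 5.43, 4.84 and 5.88 log2 with decitabine, against 4.11, 4.10 and 3.87 log2 in untreated CP70. All 6 treated arrays lay above the untreated ones, and the decitabine arrays were the most scattered (SD 0.52 log2). It rose by 1.36 ± 0.21 log2 with decitabine (SE, n = 3 each, limma adjusted p = 0.00104), which covered 19.4% of the log2 distance to A2780, and by 1.12 ± 0.21 log2 with both drugs (SE, limma adjusted p = 0.00347). With PXD101 the arrays had 4.13, 4.21 and 3.83 log2. The other MAB21L2 probe set changed by 0.18 log2 with decitabine and did not pass the test (limma adjusted p = 0.628).

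ZNF532 had 4.99, 5.32 and 5.17 log2 with both drugs and 5.30, 5.28 and 5.14 log2 with decitabine, against 4.78, 4.66 and 4.78 log2 in untreated CP70. The arrays did not overlap, but the rises were small, at 0.50 ± 0.10 log2 with decitabine (SE, n = 3 each, limma adjusted p = 0.00763) and 0.42 ± 0.10 log2 with both drugs (SE, limma adjusted p = 0.0184). The calls were lost when only the arrays compared were fitted, at a limma adjusted p of 0.0532 with decitabine and 0.0931 with both drugs. Without replicate 2 or replicate 3 of the arm with both drugs, the limma adjusted p was 0.103 or 0.0528. The other ZNF532 probe set changed by 0.37 log2 with decitabine (limma adjusted p = 0.107).

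LNX1 had 5.22, 5.28 and 4.96 log2 with both drugs, against 4.20, 4.38 and 4.18 log2 in untreated CP70, with no overlap. It rose by 0.90 ± 0.14 log2 (SE, n = 3 each, limma adjusted p = 0.000969), while the changes of 0.36 log2 with decitabine and 0.32 log2 with PXD101 did not pass the test, and the difference between the arms was not tested. The other LNX1 probe set changed by -0.08 log2 with both drugs (limma adjusted p = 0.835).

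SSPN moved further down. It had 3.96, 3.93 and 4.01 log2 with both drugs, 3.98, 4.12 and 4.27 log2 with decitabine and 3.91, 4.65 and 4.23 log2 with PXD101, against 4.78, 4.77 and 5.06 log2 in untreated CP70. Every treated array lay below the lowest untreated array. The changes were -0.90 ± 0.16 log2 with both drugs (SE, n = 3 each, limma adjusted p = 0.00183), -0.75 ± 0.16 log2 with decitabine (SE, limma adjusted p = 0.0084) and -0.61 ± 0.16 log2 with PXD101 (SE, limma adjusted p = 0.0315). A second SSPN probe set also fell, by 0.72 log2 with both drugs (limma adjusted p = 0.0094) and by 0.65 log2 with decitabine (limma adjusted p = 0.0195). With PXD101 that probe set changed by -0.22 log2 (limma adjusted p = 0.459). Another passed in no arm, at -0.31 log2 with both drugs (limma adjusted p = 0.272), and the remaining one was under 5.5 log2 in all groups.

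With PXD101, MEIS1 and GPC4 were called beside SSPN. MEIS1 had 4.65, 4.79 and 4.80 log2 with PXD101, against 4.07, 4.59 and 4.0 log2 in untreated CP70, and rose by 0.52 ± 0.15 log2 (SE, n = 3 each, limma adjusted p = 0.0383). GPC4 had 3.48, 3.63 and 3.84 log2 with PXD101, against 3.98, 4.19 and 4.07 log2 in untreated CP70, and fell by 0.43 ± 0.11 log2 (SE, n = 3 each, limma adjusted p = 0.0272). In both genes the arrays did not overlap, though only narrowly in MEIS1. The other MEIS1 probe set changed by 0.29 log2 with PXD101 (limma adjusted p = 0.334) and the other GPC4 probe set by -0.03 log2 (limma adjusted p = 0.908), so neither passed. All 3 PXD101 calls were lost without untreated CP70 replicate 1, without its replicate 3 and without any 1 of the PXD101 arrays. Without untreated CP70 replicate 2, the array closest to the PXD101 arrays, 4 genes were called, with MEIS1 at 0.71 log2 (limma adjusted p = 0.000439) and RHOBTB1, not called on all arrays, at 0.84 log2 (limma adjusted p = 8.1e-05). The share of all genes called with PXD101 in these settings is not given here. The lost and gained calls are therefore not read as a trait of these genes.

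**Figure D3:**
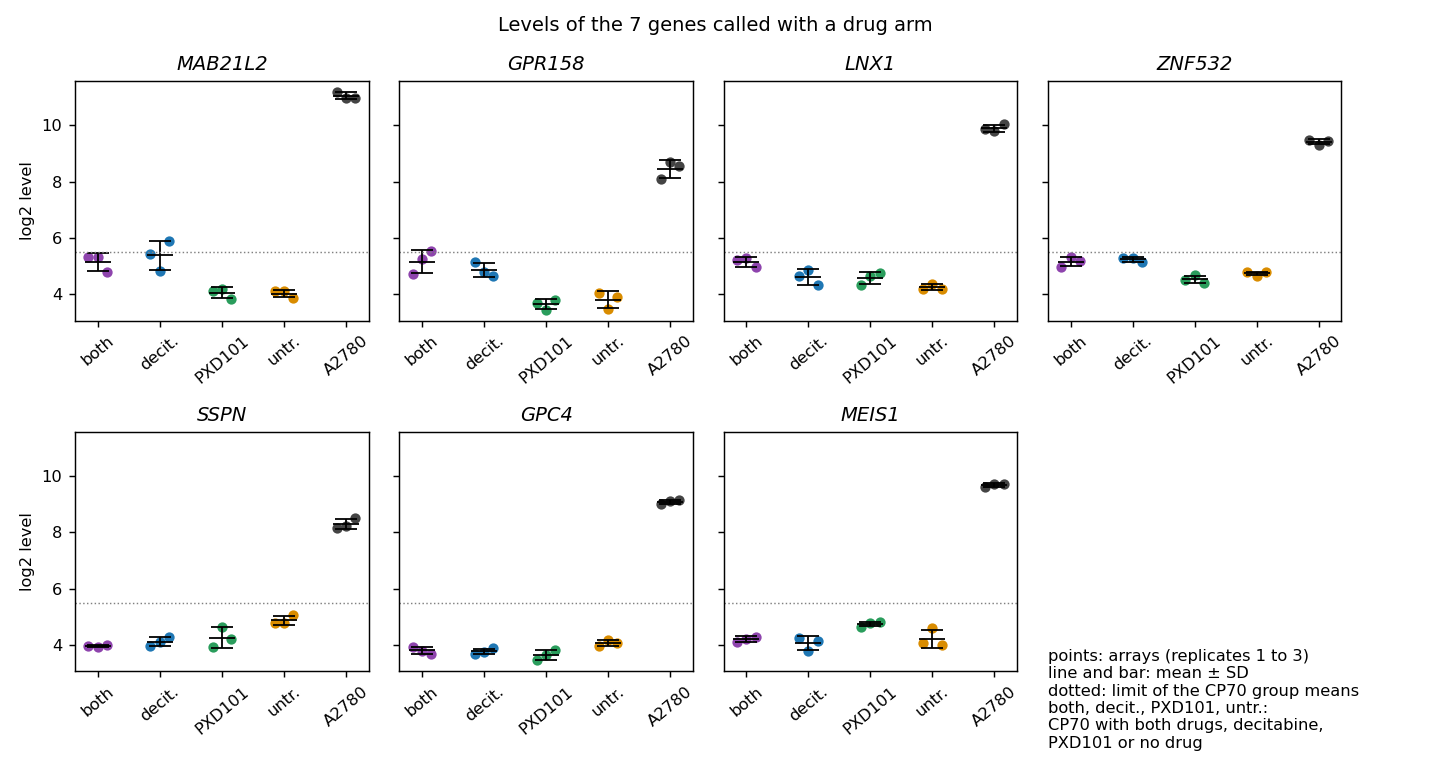
Log2 level of the 7 genes that passed the test with a drug arm, with each of the 3 arrays a group as a point, the mean ± SD as bars and the 5.5 log2 limit dotted. Treated arrays of MAB21L2, GPR158, LNX1 and ZNF532 sit a little above untreated CP70 with both drugs and remain several log2 units under A2780, while SSPN sits lower with every drug.

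Untreated CP70 was also reduced to its replicate 2, by leaving out replicates 1 and 3, an alternative chosen after seeing the data in which that lone array is assumed to vary like the other groups. With both drugs 2 of the 40 genes were then called, against 5 on all arrays, and 4.37% of all genes, against 10.4%. With PXD101 no gene of the whole array was called. Against this lone array GPR158 differed by 1.67 log2 with both drugs, and RHOBTB1 by -0.79 log2. With decitabine the differences were 1.29 log2 for MAB21L2, 1.37 log2 for GPR158 and -0.63 log2 for RHOBTB1. ZNF532 differed by 0.58 log2 and SSPN by -0.65 log2 in that arm. Calls lost with both drugs kept their direction, at 1.04 log2 for MAB21L2 (limma adjusted p = 0.0763), 0.77 log2 for LNX1 (limma adjusted p = 0.0523) and -0.80 log2 for SSPN (limma adjusted p = 0.0595). The summed level of the 11 epithelial markers was 68.5 to 69.5 log2 with both drugs and 67.9 to 69.3 log2 with decitabine, against 62.0 to 63.4 log2 in untreated CP70, and its part in the changes was not tested.

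The limit of 5.5 log2 set these genes apart from 20 others with the same levels in A2780 and untreated CP70, which reached at least 5.5 log2 in some drug arm. Those 20 ranged from genes that came back almost fully, such as ARMCX2 with 10.36 log2 with decitabine and 3.64 log2 in untreated CP70, to genes barely past the limit, such as FEZ1. They differ from the 40 genes by the rule itself, so that their drug changes are not compared.

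Promoter sequences were matched for 32 of the 40 genes, 16 of the 20 others and 15384 genes in all. The median number of CpG dinucleotides in the 300 bases was 17 in the 32 genes, ranging from 2 to 54, against 18 in the 16 and 22 over all genes. Promoters with a GC share of at least 55% and an observed over expected CpG ratio of at least 0.65 made up 50.0% of the 32 genes, 37.5% of the 16 and 58.2% of all genes. The letters TATAAA stood on either strand in 2 of the 32 (6.25%, against 8.76% of all promoters), and CCAAT on either strand in 11 (34.4%, against 36.1%). These are descriptions of the window and were not tested. Each gene was described by 1 annotated start, and the start used in these cells was not measured. Of the genes that rose with decitabine, GPR158 held 37 and ZNF532 held 3 CpG dinucleotides, and MAB21L2 had no sequence in the table. KCNMA1, with 54, changed by 0.25 log2 (limma adjusted p = 0.175).

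**Figure D4:**
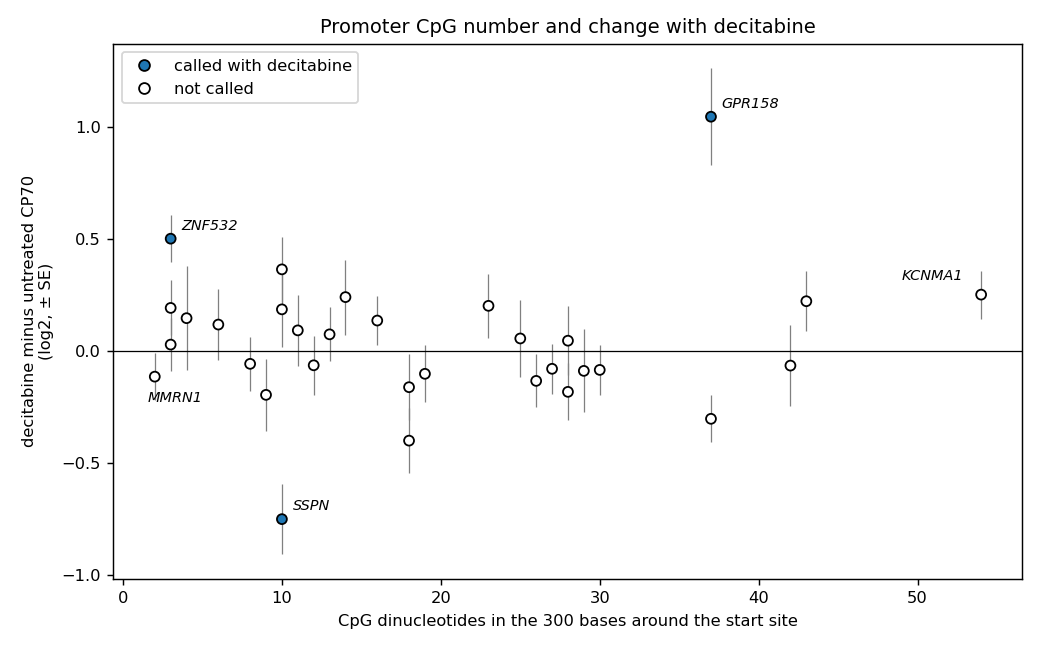
Number of CpG dinucleotides in the 300-base promoter window (x axis) and change with decitabine against untreated CP70 (y axis, log2 ± SE, 3 arrays a group) for the 32 genes with a sequence. GPR158, ZNF532 and SSPN, the filled points, lie at 37, 3 and 10 CpG dinucleotides, and most of the open points lie within 0.5 log2 of 0 at all CpG numbers.

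The positions of the genes were not used by the rule. Chromosome 18 carried 5 of the 40 genes, ZNF521, ZNF532, CBLN2, SYT4 and EPB41L3, which is 12.5% of them, beside 1.53% of all genes measured. Of 97 chromosome 18 genes at 8 log2 or more in A2780, 5.15% belonged to the 40, against 0.640% of 6251 such genes on all chromosomes. For the chromosome as a whole the median difference was 0.04 log2, with 16.8% of its genes lower in untreated CP70, beside 15.2% of all genes, and 22.1% higher, beside 16.1%. Chromosomes 4 and 10 carried 6 of the 40 genes each, or 15%, beside 4.01% and 3.93% of all genes. These counts are descriptions without a test.

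To see whether the low levels reached past the genes themselves, the nearest named gene on either side of each was compared between the lines, leaving out genes that the levels would have taken. Of 76 such neighbours, 26 (34.2%, against 15.2% of all genes) were lower in untreated CP70 by limma at an adjusted p under 0.05, and 6 (7.89%, against 16.1%) were higher. The median difference was -0.10 log2, beside 0.01 log2 over all genes, and 12 neighbours were lower by at least 1 log2. Among neighbours above the median level of all genes, 13 of 35 were lower (37.1%, against 22.5% of all genes above that level). Of the 40 genes, 23 had at least 1 lower neighbour and 3 had 2. With replicate 2 as the only untreated CP70 array, the neighbour with the widest difference, GPC3, differed by -4.55 log2. GPC3 was picked for its wide difference and does not stand for the other neighbours.

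The widest neighbour difference was that of GPC3, a glypican beside GPC4 on the X chromosome, with 5.70, 6.25 and 5.67 log2 in untreated CP70, against 10.53, 10.77 and 11.11 log2 in A2780. It differed by -4.93 ± 0.18 log2 (SE, n = 3 each, limma adjusted p = 1.72e-11), or 30.4-fold, and changed by 0.20 log2 with decitabine (limma adjusted p = 0.578). AMIGO2, a cell adhesion gene beside PCED1B, had 10.24, 9.72 and 10.02 log2 in untreated CP70, against 12.85, 12.89 and 12.88 log2 in A2780 (limma adjusted p = 1.54e-09). Both genes were separated between the lines on every array. Smaller differences were found for RERGL beside LMO3 at -2.38 log2, FZD6, a WNT receptor beside BAALC, at -2.14 log2, ZNF704 beside PAG1 at -2.13 log2 and SAMTOR, a sensor of S-adenosylmethionine beside GPR85, at -2.07 log2. RIT2 beside SYT4 differed by -1.62 log2 and COBLL1 beside GRB14 by -1.49 log2. Signals of overlapping or antisense genes may not be told apart on these arrays. RBPMS-AS1 and BAALC-AS2, counted among the lower neighbours at -0.48 and -0.43 log2, share loci with RBPMS and BAALC. CASP1, whose signal may likewise be shared with CARD16 beside it, was also counted among them, at -1.25 log2.

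**Figure D5:**
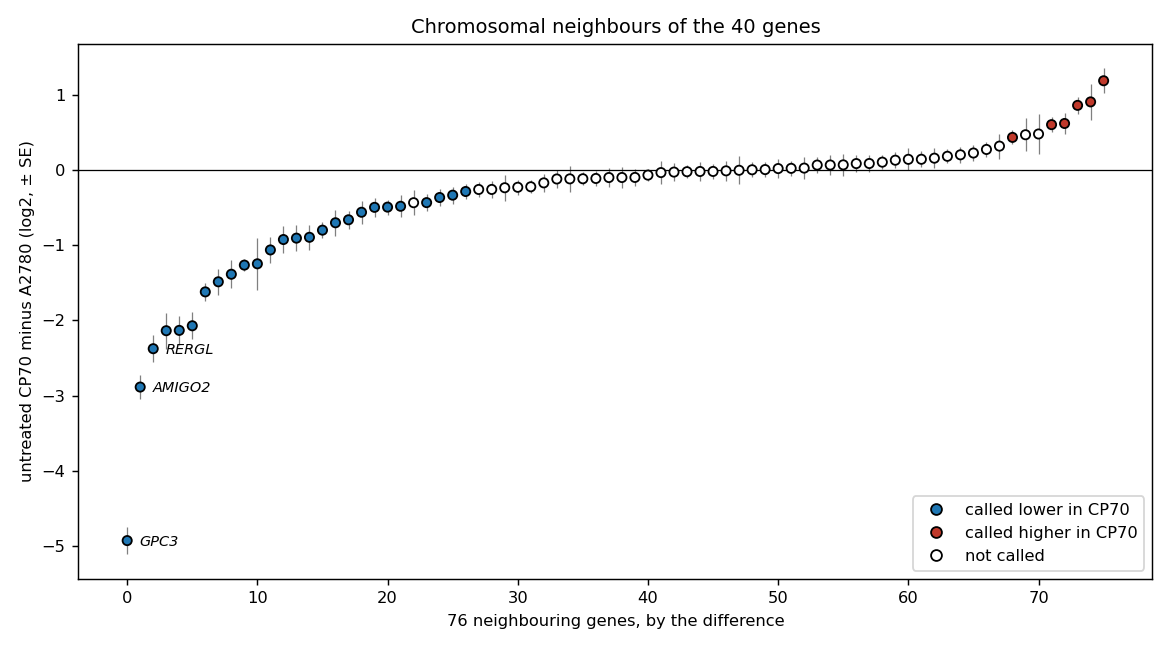
Difference between untreated CP70 and A2780 (log2 ± SE, 3 arrays a group) for the 76 chromosomal neighbours, in order of the difference. Filled points passed an adjusted p of 0.05, 26 lower in blue and 6 higher in red, with GPC3 far below the rest at -4.93 log2.

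Relatives that share a symbol stem with the 40 genes were lower and higher in similar numbers. Of 69 relatives from 23 stems, 13 (18.8%, against 15.2% of all genes) were lower in untreated CP70 by limma and 15 (21.7%, against 16.1%) were higher, with a median of 0.05 log2. With replicate 2 as the only untreated CP70 array, the relative LMO4 differed by -3.04 log2 and the relative MEIS2 by -1.41 log2. Of the 6 relatives of GPC4, 5 are glypicans and GPC1-AS1 is an antisense RNA. Beside GPC3, the lower ones were GPC6, at 4.90, 4.99 and 4.73 log2 in untreated CP70, against 7.89, 7.49 and 7.24 log2 in A2780 (limma adjusted p = 8.84e-10), and GPC5 at -0.65 log2. MEIS2 differed by -1.84 log2 and MEIS3 by -0.86 log2, both lower by limma, like MEIS1. LMO4 differed by -2.40 log2. CARD10 at -1.32 log2 and GPM6B at -1.01 log2 were lower on all arrays. Against CP70 replicate 2 alone they differed by -0.48 log2 (limma adjusted p = 0.137) and -0.76 log2 (limma adjusted p = 0.0859), so that both calls were lost and both directions kept. Relatives were matched by symbol alone, so not all of them are members of the same gene family. Those of EPB41L3 were higher in 5 of 9 and lower in 1. The higher ones include EPB41L4A-AS1 at 1.90 log2 and EPB41L4A-DT at 0.37 log2, by their symbols an antisense and a divergent transcript of EPB41L4A. EPB41L4A itself was higher at 3.37 log2, EPB41L4B at 3.47 log2 and LMO2 at 0.96 log2. These and PAX9 were named after their values were seen. PAX9 went the other way from PAX2, averaging 9.92 ± 0.14 log2 in untreated CP70 and 3.83 ± 0.25 log2 in A2780 (SD, n = 3 each, limma adjusted p = 4.61e-12).

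Lists of related genes were compared between the lines, where 16.1% of all genes were higher and 15.2% lower in untreated CP70 by limma. Of 69 developmental transcription factors, 18 were higher (26.1%) and 16 lower (23.2%), and 3 of the lower ones, PAX2, MEIS1 and MAB21L2, belong to the 40 genes. ZIC1, a zinc finger regulator of the neural tube outside the 40 genes, differed by -4.32 log2 (limma adjusted p = 1.25e-13) and kept 7.67 log2 in untreated CP70. In the WNT pathway 13 of 56 genes were higher (23.2%) and 12 lower (21.4%), with the ligand WNT5A at 2.28 log2, the ligand WNT5B at -2.03 log2 and the inhibitor DKK2 at 2.76 log2. In the BMP and TGF-beta pathway 17 of 50 were higher (34.0%) and 12 lower (24.0%), with the ligands BMP5 at 3.60 log2 and BMP7 at 1.38 log2 and the receptor ACVR2B at -1.89 log2. Of 60 neuronal adhesion, cytoskeleton and synapse genes, 11 were higher (18.3%) and 14 lower (23.3%), with the neurofilament gene NEFL at -5.90 log2, NLGN1 at 5.23 log2 and NLGN4X at -3.89 log2. None of the genes in these last 3 lists belonged to the 40, and each list moved in both directions.

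The lists closest to DNA methylation held genes that changed with decitabine in both directions. Of 50 genes widely described as methylated in cancer, 10 were higher (20.0%) and 16 lower (32.0%) in untreated CP70 by limma. With decitabine 9 of them rose (18%, against 4.87% of all genes) and 3 fell (6.0%, against 3.14%). ARMCX2 and the growth factor gene MDK were among these, at 6.71 and 1.60 log2 with decitabine. Of 20 BEX, TCEAL, ARMCX and GPRASP genes of the X chromosome, 7 were higher (35%) and 6 lower (30%) in untreated CP70, and with decitabine 8 rose (40%) and 3 fell (15%). BEX1 rose by 2.80 ± 0.15 log2 with decitabine (SE, n = 3 each, limma adjusted p = 1.09e-08), whereas TCEAL8, at 5.96 log2 between the lines, changed by -0.19 log2. The differences between these counts and that of the 40 genes, whose rises the rule limited, were not tested.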

How the data were processed

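RNA from 2 established ovarian cancer cell lines was measured on 15 Affymetrix arrays in 5 groups of 3, grouped and numbered by the sample titles. Log2 values of 54675 probe sets were deposited by the authors as a single table. R 2.10.1 and affy are named in the submitters' processing notes; how background was corrected and how probes were normalized and summarized is not given in the sources used here. Array medians ran from 5.0 to 5.06, and the range of the values showed the log2 scale. RNA was amplified before labelling, per the labels' protocols. Arrays give no depth, and their number limits the precision.

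Of the probe sets, 41091 had a single symbol, 41037 of them matched to RefSeq by Entrez ID, 1801 had several symbols and 11777 had none. Each of 19775 genes was represented by its highest-averaging probe set. Group means were fitted with limma 3.58.1 (R 4.3.3; lmFit and eBayes) on all arrays, with 1 spread per gene, and a call needed a Benjamini-Hochberg adjusted p under 0.05. For other probe sets the adjustment ran over all probe sets. Rank product, the test of the series' design text, used 9 pairwise differences and 100 permutations at 5% false positives (Python 3.11.15, numpy 2.4.6, pandas 2.3.3). Both tests were checked on simulated data. Promoters came from RefSeq (GRCh38.p14), and neighbours followed the RefSeq gene order among genes named in the tables used here.

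The genes, the lists and the tests were chosen with earlier results of these data known, so no list is independent evidence. Named were the 12 genes with the widest difference, the 12 with the highest A2780 mean, those called with a drug, 3 on each side of each limit, 5 per role, 8 neighbours and 8 relatives with the largest falls, and 3 genes per list. The other 7 members (FGFBP3, GPR85, KISS1R, LINC02381, LMO3, PAG1 and RHOBTB1) were named to account for all 40. Alternatives were other limits, the mean over probe sets, renewed quantile or median scaling, array weights, the arrays compared alone, genes above the median level, a replicate block, rank product and leaving out each array. Same-numbered arrays did not deviate together in every pair (correlations from -0.37 to 0.33), so the numbers were not taken to pair the samples.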

Additional observations from a re-analysis of the deposited data

How the results depend on the processing

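The choice of members depended on the limits: 16 genes passed with at least 9 log2 in A2780 and under 5 log2 in CP70, and 107 with 7 and 6 log2. The mean over the probe sets of a gene gave 32, of which 26 were shared, limits asked of every array gave 33, and leaving out 1 array gave 37 to 42. Array weights gave 10 genes called with decitabine, 11 with PXD101 and 9 with both drugs, against 4, 3 and 5 in the fit of all arrays, while of all genes they called 33.7%, 43.7% and 41.1%, against 8.01%, 10.7% and 10.4%. Rank product called 1 with decitabine, 0 with PXD101 and 3 with both drugs (1.89%, 1.81% and 2.26% of all genes), 9 lower neighbours (11.8%) and 4 lower relatives (5.8%, against 2.62% of all genes), where limma at an unadjusted p under 0.05 had 6 higher and 3 lower with decitabine, 4 and 2 with PXD101, and 4 and 2 with both drugs. Fitting only the arrays compared gave 3 with decitabine, 0 with PXD101 and 4 with both drugs, and 21 lower neighbours. With replicate 2 as the only untreated CP70 array, chosen after seeing the data, GPR158 changed by 1.67 log2 and MAB21L2 by 1.04 log2 with both drugs. In that fit the relative CARD10 differed by -0.48 log2 between the lines. Leaving out 1 array gave 4 to 5 with decitabine, 0 to 4 with PXD101, 4 to 5 with both drugs, 22 to 25 lower neighbours and 10 to 14 lower relatives. Testing only genes above the median level gave 15 of 35 neighbours and 7 of 25 relatives lower, and left none of the 40 genes for the drug tests. With the replicate number as a block, 5 genes were called with decitabine, 2 with PXD101 (MEIS1 was lost, limma adjusted p = 0.061) and 5 with both drugs, and 25 neighbours and 12 relatives were lower; the numbers do not pair the samples. Renewed quantile and median scaling gave the same 40 genes and the same counts of drug calls. Over the single genes tested, 298 alternative values kept direction and call, 34 kept the direction without the call and 0 reversed. These values pool the drug calls of the 40 genes with neighbours and relatives named for their largest falls between the lines. Most of the lost calls were drug calls, above all those with PXD101, so the pooled numbers do not describe how stable the drug calls were. Where a count of calls stands without its share of all genes, that share is not given here. Nothing is read from such a count about these genes. The causes were not tested. Signal near the bottom of the scale limits all changes of these genes in CP70.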

Other observations

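Among 13522 probe sets without a single symbol in the tables used here, 5 also met the levels of the rule. A probe set shared by OTOA and its pseudogene OTOAP1 averaged 4.10 log2 in untreated CP70 and 8.78 log2 in A2780. A probe set shared by CKMT1A and CKMT1B, which encode near-identical mitochondrial creatine kinases, averaged 5.23 log2 in untreated CP70 and 8.86 log2 in A2780, and 5.08 to 5.47 log2 in the drug arms. The other 3 probe sets are not named here and averaged 4.52, 3.97 and 3.24 log2 in untreated CP70, against 9.14, 8.83 and 10.76 log2 in A2780.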
